A study of Mus musculus with 24 samples.

Results

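Of the 10 genes described here, 5 encode the subunits of the transcription factor NF-κB (Nfkb1, Nfkb2, Rela, Relb and Rel). The other 5 are grouped here as its feedback inhibitors (Nfkbia, Nfkbie, Nfkbiz, Tnfaip3 and Bcl3). Nfkbiz and Bcl3 encode nuclear IκB proteins, and whether they restrain NF-κB in these cells was not tested. The 10 genes were chosen by name, as the members of this family, out of 35492 gene symbols with a value in each of 24 RNA-seq libraries. All 10 were measured in every library and all 10 passed the filter on low values, at least 1 TPM in at least 3 libraries, as 15720 symbols did. TPM is the share of a gene's transcripts among all transcripts of a library, corrected for transcript length and scaled to the same total in every library.

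The cells were naive CD4 T cells sorted from the spleen and lymph nodes of C57BL/6J mice, cultured on anti-CD3 and anti-CD28, and transfected for 6 h with 2'3'-cGAMP or with a control dinucleotide, at 80 µg per mL by the sample labels. cGAMP is the second messenger that switches on STING, an adaptor protein that senses cytosolic DNA through the enzyme cGAS. The cells were then polarized, with IL-12 and an antibody to IL-4 into TH1 cells, or with TGF-β, IL-4 and an antibody to IFN-γ into TH9 cells. The labels give 8 groups of 3 libraries each: TH9 48h cGAMP, TH9 48h Control, TH1 48h cGAMP, TH1 48h Control, TH9 16h cGAMP, TH9 16h Control, TH1 16h cGAMP and TH1 16h Control. All libraries therefore share the receptor stimulation and the transfection step, and there is no unstimulated or untransfected group. The study describes its RNA-seq replicates as biological and from independent experiments, while the labels do not say which experiment a library came from.

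NF-κB proteins work as pairs. In a resting T cell most of them are held in the cytoplasm by IκB proteins, and signals from the T cell receptor, from TNF-family receptors or from STING lead the IKK kinase to mark IκB for destruction, after which the pairs enter the nucleus. Several genes that NF-κB switches on encode its own subunits and its own brakes, so the family is known for feedback. In CD4 T cells it is best known for carrying the signal of CD3 and CD28 to genes of survival, growth and cytokines. RNA levels do not report the activity of these proteins, which is set largely by their degradation and by their place in the cell.

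Neither the subset markers nor the interferon genes followed the labels. Il9, the cytokine that defines TH9 cells, exceeded Tbx21, the transcription factor that defines TH1 cells, in 8 of 12 libraries labelled TH9 and in 4 of 12 labelled TH1. Irf7, a transcription factor of the interferon response that STING can induce, had 11.3, 1.59 and 16.6 TPM in TH9 48h cGAMP libraries, against 0.185, 29 and 3.39 in TH9 48h Control. It had 10.6, 2.09 and 35 TPM in TH1 48h cGAMP, against 6.2, 21.8 and 0.28 in TH1 48h Control. It had 112, 2.25 and 115 TPM in TH9 16h cGAMP, against 1.51, 27.1 and 6.86 in TH9 16h Control, and 44.4, 13.6 and 21.8 TPM in TH1 16h cGAMP, against 2.72, 77.6 and 1.61 in TH1 16h Control. Each of the 4 control labels thus holds a library with more Irf7 than at least 1 library of its cGAMP label. Every library keeps its deposited label below, and none was regrouped by its values or by its place among the files. In order of sample number, each library at an even place had more Irf7 than the library before it. Taken by pairs in that order, Tbx21 alternated between 7 TPM or more and 1.42 TPM or less. Each label holds libraries from both sides of both patterns. The cGAMP and subset comparisons below are therefore between groups that mix libraries unlike in these markers. Ier3, one of the textbook NF-κB targets listed below, alternated in runs of 4 libraries by sample number. It stood at 3.3 TPM or less in 1 run and at 12.8 TPM or more in the next. Both time labels hold libraries from both sides, so the time comparison also mixes libraries unlike in this marker. Whether titles were exchanged between libraries was not tested. A gene that was not called may still differ between the conditions themselves. The doubt touches all 8 labels, so no set of labels free of it was left to compare. A grouping by the order of sample numbers was not tested.

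CD4 T cell markers were present throughout, with Cd3e at 12 to 126 TPM and Cd4 at 17.1 to 180 TPM, and the summed level of 7 such genes lay between 193 and 1820 TPM. Markers of other cells were low in every library: 5 B cell genes summed to at most 7.99 TPM, 5 myeloid genes to 4.37, 4 dendritic cell genes to 8.34, 3 NK cell genes to 13.8 and 2 CD8 T cell genes to 7.83, and Lyz2 did not exceed 0.154 TPM. A few transcripts took very unequal shares of the libraries. The predicted gene Gm10800 alone took 6.44 to 39.9% of all TPM in libraries labelled 48 h and 0.0933 to 29.2% in those labelled 16 h, and 8923 to 14068 symbols per library reached 1 TPM.

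Of the 10 genes, 7 have promoter windows in the RefSeq table for GRCm38.p6, which gives 250 bases before and 50 bases after each start. Of their 10 windows, 8 held at least 1 match to the NF-κB consensus decamer on either strand, as did 2779 of 32851 promoter windows of all genes (8.46%). Nfkb2 and Tnfaip3 have more than 1 window, and 6 of the 7 genes had a match. The windows of these genes were rich in G and C, at a median of 65.2% against 52.7% over all windows, and the motif is itself rich in both. Rela had no match, and the match of Bcl3 lay just inside the start, at 2. A match of letters is a description and not a measured binding site. Shown here, because members of both kinds carry one close before the start, are 30 bases around 1 match each, on the strand of the gene, with the matching decamer in capitals.
Nfkb2, chr19:46304688-46304717, plus strand: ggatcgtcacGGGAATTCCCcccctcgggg
Rel, chr11:23771042-23771071, minus strand: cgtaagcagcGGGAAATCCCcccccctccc
Nfkbia, chr12:55492657-55492686, minus strand: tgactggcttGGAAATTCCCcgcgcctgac
Nfkbie, chr17:45555584-45555613, plus strand: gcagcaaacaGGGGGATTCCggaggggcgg
Tnfaip3, chr10:19015516-19015545, minus strand: gactcacgcgGGGACACCCCggggcgggac
Counted from the start base, the decamer begins at -39 in Nfkb2, -92 in Rel, -29 in Nfkbia, -106 in Nfkbie and -125 in Tnfaip3. The decamers of Nfkb2, Rel and Tnfaip3 match the consensus on both strands, and in Nfkb2 and Rel a further match begins 1 base later. In the same windows, a match closer to the start begins at -12 in Tnfaip3 and at -11 in Nfkb2.

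Nfkb1 was the most abundant of the 10 genes in 24 of 24 libraries, at a median of 108 TPM (range 39.4 to 283). It encodes the precursor of the subunit p50, lies on chromosome 3 (chr3:135584655-135691547, minus strand, GRCm38), and made up 49 to 71.3% of the summed level of the 5 subunits, with a median of 61.4%. Its partners were present at lower levels per length. Nfkb2, which encodes the precursor of p52 and belongs to the alternative arm of the pathway (chr19:46304320-46312385), had a median of 32.2 TPM (13.8 to 97.1). Rel, which encodes c-Rel, the subunit most tied to lymphocyte activation (chr11:23736847-23770970), had 15.8 TPM (3.39 to 50.9), and Relb, the usual partner of p52 (chr7:19606217-19629438), had 11.4 TPM (5.33 to 27.6). Rela, which encodes the transactivating subunit p65 (chr19:5637483-5648130), had the lowest median of the 5, 7.1 TPM (1.99 to 16.1).

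The inhibitors spanned a similar range. Nfkbia, which encodes IκBα, the brake that NF-κB resynthesizes after each round of activation (chr12:55489410-55492647), had a median of 58.7 TPM (25.3 to 169) and ranked 2 or 3 in every library. Tnfaip3, which encodes A20, an enzyme that edits ubiquitin chains above IKK (chr10:19000910-19015657), had 34.4 TPM (8.58 to 104). Bcl3 encodes a nuclear IκB protein that binds p50 and p52 pairs (chr7:19808462-19822770) and had 11.2 TPM (2.3 to 37.3). Nfkbiz encodes IκBζ, another nuclear member of the IκB family (chr16:55811375-55838899), and had 9.56 TPM (2.59 to 31.8). Nfkbie encodes the cytoplasmic inhibitor IκBε (chr17:45555703-45563169) and had 7.43 TPM (2.25 to 21). The summed inhibitors stood at 0.429 to 1.15 times the summed subunits, with a median of 0.763.

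Neighbours in this order were often not separable. Nfkbia exceeded Nfkb2 in 24 of 24 libraries and Tnfaip3 in 22, while Tnfaip3 exceeded Nfkb2 in 12 of 24. Below these 4 genes, Rel exceeded Relb in 15 libraries, Relb exceeded Bcl3 in 14, Bcl3 exceeded Nfkbiz in 11, Nfkbiz exceeded Nfkbie in 17 and Nfkbie exceeded Rela in 13. The lowest of the 10 was Nfkbie in 10 libraries, Rela in 9 and Bcl3 in 5. Nfkb2 exceeded Rel in 23 of 24, so the 4 abundant genes and the 6 others were nearly always apart, while the order among the 6 changed from library to library.

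**Figure D1:**
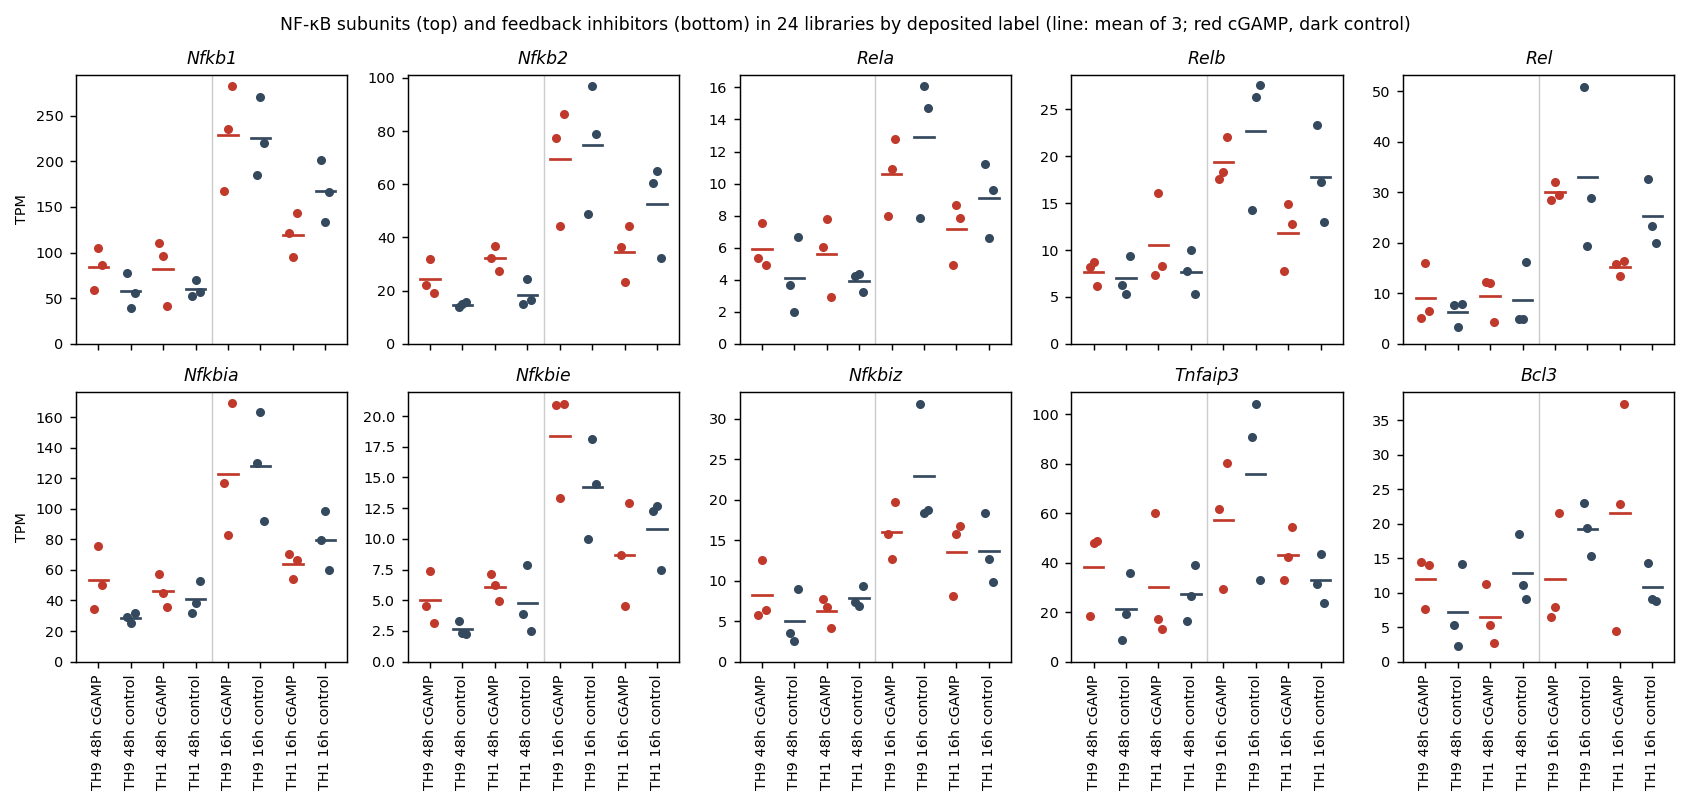
Level in TPM (vertical axes, from 0) of each gene in the 24 libraries, by deposited label (horizontal axes), subunits above and inhibitors below. Points are libraries and lines are means of 3. Points of libraries labelled 48 h (left of the grey line) lie mostly below those labelled 16 h, while points with cGAMP (red) and control (dark) labels mostly interleave, as for Nfkb1, which ranged from 39.4 to 283 TPM.

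Because the shares taken by a few transcripts move every TPM value of a library together, ratios between members within a library are free of that shift. Relb exceeded Rela in 24 of 24 libraries, at 1.15 to 2.81 times its level (median 1.72). Rel exceeded Rela in 23 of 24 libraries, but over a wider range, 0.939 to 6.47 times (median 2.05). The ratio of Nfkb2 to Nfkb1 ran from 0.177 to 0.665 (median 0.3), and that of Nfkbia to Nfkb1 from 0.353 to 0.93 (median 0.578). Tnfaip3 stood at 0.296 to 1.13 times Nfkbia. Bcl3 against Nfkb1 had the widest range of the 6 ratios formed, 0.0334 to 0.35, a 10.5-fold range.

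Bcl3 varied among libraries of the same label, but each label mixes libraries unlike in Irf7 and Tbx21. This spread is therefore not that among replicates of a condition. It had 4.44, 22.9 and 37.3 TPM in libraries labelled TH1 16h cGAMP, against 14.3, 9.13 and 8.8 in TH1 16h Control. It had 6.41, 7.88 and 21.5 TPM in TH9 16h cGAMP, against 23, 19.4 and 15.3 in TH9 16h Control. The libraries of the first label lie both below and above all of their controls. After the mean of the 10 genes was taken off in each library, the SD of its log2 level over the 24 libraries was 0.743, the widest of the 10, followed by Tnfaip3 at 0.56 and Rel at 0.495. Nfkbia, at 0.252, kept closest to the rest.

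**Figure D2:**
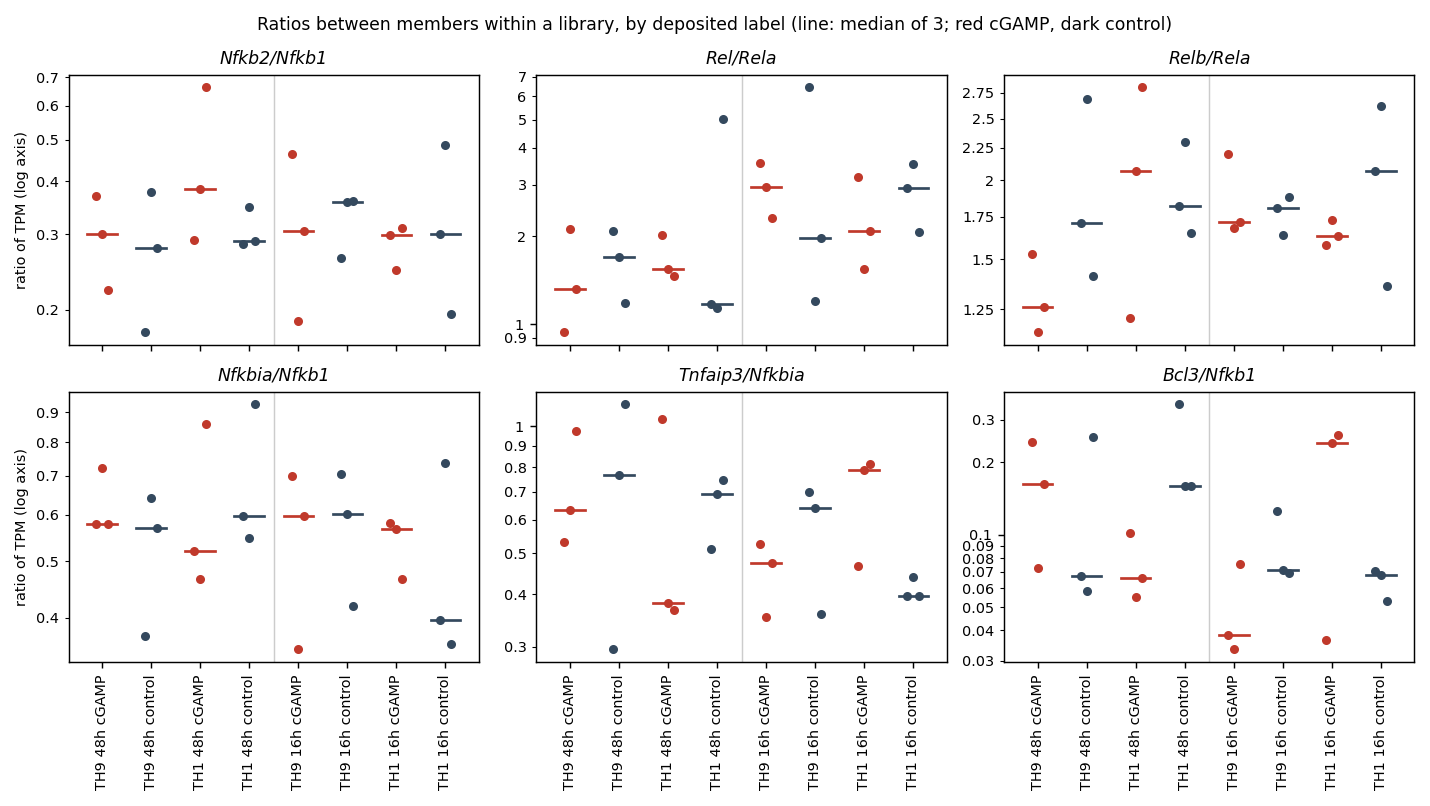
Ratios of the TPM of 2 genes within each library (vertical axes, log scale) by deposited label. Points are libraries and lines are medians of 3. The ratio of Bcl3 to Nfkb1 runs from 0.0334 to 0.35 and that of Relb to Rela from 1.15 to 2.81, and the points with cGAMP (red) and control (dark) labels overlap in most panels.

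The first comparison set libraries labelled cGAMP against those labelled control, labels that the interferon genes did not follow. Since libraries high and low in Irf7 fall under both labels, it cannot show whether cGAMP changed the 10 genes. None of the 10 was called between libraries labelled cGAMP and control, at an adjusted p under 0.05 by limma, in either subset at either time or on average. Across all 15720 genes the same tests called 1 gene, lower in TH1 16h cGAMP (0.00636%), and 0% in either direction in the other 4 comparisons. At an unadjusted p under 0.05 by limma there was 1 gene of the 10 in 1 comparison, Nfkbia at TH9 48h, where 1557 of all genes had one. On average over subsets and times the log2 fold changes of the 10 genes ran from -0.09 for Bcl3 to 0.27 for Nfkbie, with standard errors of 0.193 to 0.316, 6 of them above 0 and a median of 0.10. Of all genes, 53.4% lay above 0, with a median of 0.01. Nfkb1, for example, averaged 129 ± 70.3 TPM in cGAMP libraries and 127 ± 79 TPM in control libraries (SD, n = 12 each), and Bcl3 had 2.73 to 37.3 TPM (median 9.55) in cGAMP libraries and 2.3 to 23 TPM (median 12.7) in control libraries. Beside this, 4 genes of the interferon response summed to 14.5 to 351 TPM (median 98.2) in cGAMP libraries and 5.32 to 252 TPM (median 26.2) in control libraries, ranges that overlap over most of their length, as the levels of Irf7 above do.

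The subunits lay on opposite sides of 0 at the 2 times in libraries labelled TH1. At TH1 48h all 5 were above 0, with Nfkb2 the furthest. Nfkb2 had 32.1, 36.7 and 27.5 TPM in TH1 48h cGAMP libraries, against 15, 24.2 and 16.4 in TH1 48h Control libraries. These did not overlap, as was so for 2.2% of all genes in that direction and 6.33% in the other, and the log2 fold change was 0.78 ± 0.39 (SE), with an adjusted p of 0.953 by limma. The other subunits ran from 0.19 for Rel to 0.37 for Relb there. At TH1 16h all 5 subunits were below 0, between -0.67 for Rel and -0.32 for Rela. Rel had 15.8, 13.4 and 16.4 TPM in TH1 16h cGAMP libraries, against 32.7, 23.3 and 19.9 in TH1 16h Control libraries, which again did not overlap (6.97% of all genes in that direction and 5.85% in the other), at a log2 fold change of -0.67 ± 0.495 and an adjusted p of 0.736 by limma. The difference of the log2 fold change between cGAMP and control labels, 48 h minus 16 h in TH1, was 1.35 ± 0.551 for Nfkb2. Its unadjusted p was 0.0226 and its adjusted p 0.336 by limma, so that the change of sign was not called. Under upper-quartile scaling, which sets the same upper quartile in each library, the subunits kept these signs, with Nfkb2 at 1.04 at TH1 48h. The difference then had an unadjusted p under 0.05 by limma for 4 of the 5 subunits and 22.8% of all genes, and was called for 0 genes. Ier3 had 12.8, 0.933 and 0.284 TPM in TH1 48h cGAMP libraries, against 30, 16.8 and 16.1 in TH1 48h Control. It had 0.982, 44 and 28.6 TPM in TH1 16h cGAMP, against 0.736, 0.667 and 1.02 in TH1 16h Control. The part of this unlike make-up in the signs of the subunits was not tested.

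The inhibitors did not share one direction at TH1 48h, where Nfkbia and Nfkbie lay above 0 and Nfkbiz, Tnfaip3 and Bcl3 below. Bcl3 was furthest from 0, with 11.2, 5.27 and 2.73 TPM in TH1 48h cGAMP libraries, against 18.5, 11.1 and 9.01 in TH1 48h Control libraries. The 2 groups overlap by the highest cGAMP library, which just exceeds the middle control. Its log2 fold change was -1.02 ± 0.633 (adjusted p 0.953 by limma). For Bcl3 the difference of the fold change between cGAMP and control labels, TH9 minus TH1 at 48 h, was 1.91 ± 0.895. Its unadjusted p was 0.0443 and its adjusted p 0.403 by limma. After upper-quartile scaling the difference was 1.07 ± 0.64, with an unadjusted p of 0.109 and an adjusted p of 0.448 by limma. In this difference 2 of the 10 genes then lay above 0, in place of 8.

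At TH9 48h all 10 genes were above 0, with a median log2 fold change of 0.67, in a comparison in which 85.4% of all genes were above 0 with a median of 0.50. Nfkbia had 34.3, 75.8 and 50 TPM in TH9 48h cGAMP libraries, against 28.9, 25.3 and 31.8 in TH9 48h Control libraries. The 2 groups did not overlap, as was so for 13.2% of all genes in that direction. The log2 fold change was 0.81 ± 0.385, with an unadjusted p of 0.0476 and an adjusted p of 0.487 by limma, and 0.025 ± 0.439 after upper-quartile scaling. Nfkb2 did not overlap either, with 22, 31.7 and 19.2 TPM in TH9 48h cGAMP libraries, against 13.8, 14.9 and 15.6 in TH9 48h Control libraries, at 0.65 ± 0.39 (adjusted p 0.492 by limma). After upper-quartile scaling, which removes the common shift, 5 of the 10 genes lay above 0 and the median became -0.04, with all 5 subunits below 0 (Nfkb2 at -0.11) and all 5 inhibitors above. At TH9 16h, of the 10 genes, Nfkbie (0.36 ± 0.415) and Nfkb1 (0.01 ± 0.408) were above 0, with a median of -0.14 beside -0.24 over all genes, and under the same scaling 7 were. Nfkbie had 20.9, 13.3 and 21 TPM in TH9 16h cGAMP libraries, against 9.98, 18.1 and 14.5 in TH9 16h Control libraries. No gene of the 10 was free of overlap there, as 1.62% of all genes were in the higher and 13.2% in the lower direction.

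**Figure D3:**
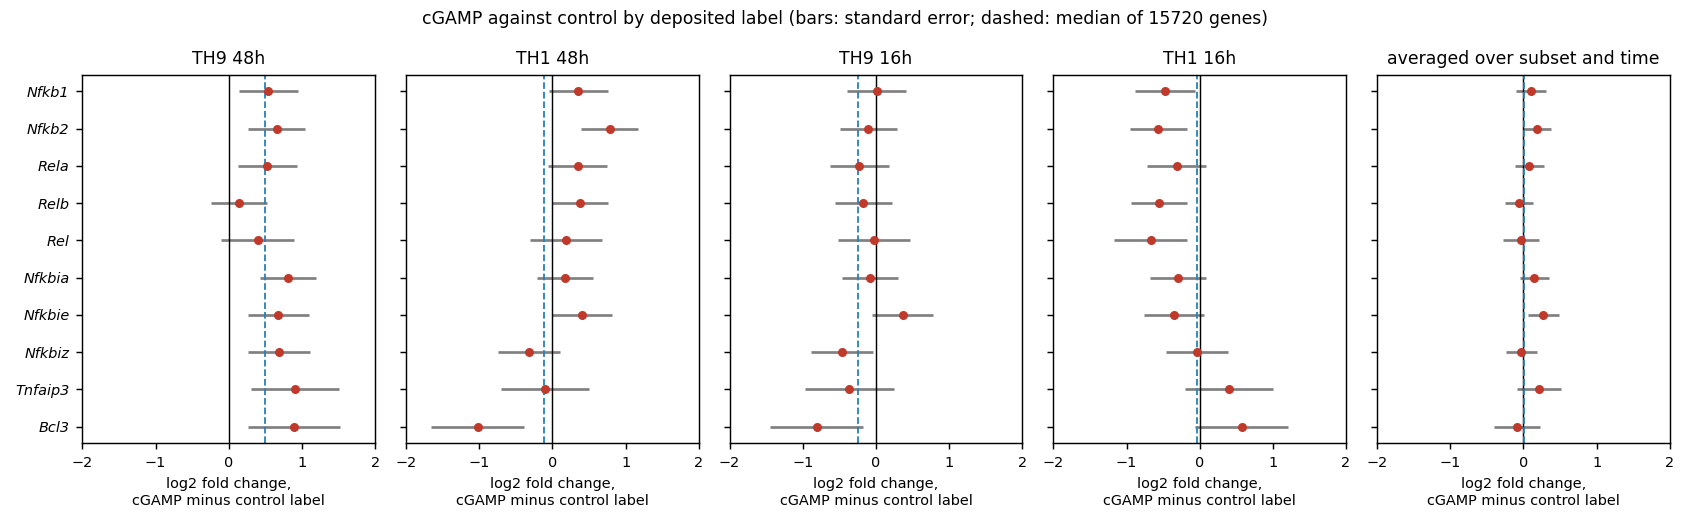
Log2 fold change (horizontal axes) of each gene between libraries labelled cGAMP and control, in the 4 pairs of labels and on average. Points are estimates on log2(TPM + 1), bars are standard errors and dashed lines are the medians of 15720 genes. All points lie to the right of 0 at TH9 48h, beside a median of 0.50 over all genes, and the averages lie between -0.09 and 0.27.

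The genes that act before and after NF-κB were looked at in 6 lists. In the average comparison no gene of any list was called between cGAMP and control labels, and none had an unadjusted p under 0.05 by limma. There 14 of 16 other brakes, 9 of 14 genes of IKK and its activators, 3 of 8 genes of the T cell receptor arm, 4 of 9 tested genes of the alternative pathway, 6 of 7 tested genes of the STING arm and 21 of 25 textbook NF-κB targets lay above 0, where 53.4% of all genes did. The median log2 fold changes of the lists, in the same order, were 0.09, 0.03, -0.04, -0.05, 0.09 and 0.27. Under upper-quartile scaling 9 of 16 other brakes and 6 of 14 genes of IKK and its activators lay above 0. Their medians were then 0.04 and -0.0017, beside -0.013 over all genes, and the other lists are not given here under that scaling. In the deposited values, Ccl5, a chemokine among the targets, was at 1.45 ± 0.848 and Cflar, an inhibitor of apoptosis, at 0.29 ± 0.196. In the STING arm Mb21d1, which encodes cGAS, was at 0.41 ± 0.223 and the kinase Tbk1 at 0.20 ± 0.212. Tnip2, which encodes a partner of A20, was at 0.45 ± 0.314, and the IκB gene Nfkbib at 0.23 ± 0.224. Traf5 and Chuk, an adaptor and a catalytic subunit of IKK, were at 0.22 ± 0.202 and 0.23 ± 0.238. Plcg1 and Pdpk1 of the receptor arm were at -0.27 ± 0.329 and -0.17 ± 0.229, and Traf3 and Cd40 of the alternative pathway at 0.31 ± 0.241 and 0.23 ± 0.2. For all of these 12 genes the adjusted p by limma was 1.

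Between the subsets, all 10 genes lay above 0 in libraries labelled TH9 against TH1, averaged over time and treatment, from 0.04 for Bcl3 to 0.36 for Tnfaip3. None was called, and 0% of all genes were in either direction, with 0 of the 10 and 344 of all genes at an unadjusted p under 0.05 by limma. Nfkb1 averaged 149 ± 88.8 TPM in libraries labelled TH9 and 107 ± 48.6 in those labelled TH1 (SD, n = 12 each). Nfkbia averaged 83.4 ± 51.9 TPM in TH9 and 57.5 ± 19.5 in TH1. Both differences are smaller than the SD within the TH9 label, which covers both times. Of all genes 67.1% lay above 0, and under upper-quartile scaling Bcl3 turned to -0.06, while Nfkb1 was at 0.22 ± 0.153 and Nfkbia at 0.20 ± 0.219. Since Il9 and Tbx21 did not follow the subset labels, this compares labels, and the part of the labelling in the result was not tested.

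Between the time labels, averaged over subset and treatment, 9 of the 10 genes were called lower in the deposited TPM at 48 h than at 16 h. So were 64.5% of all genes, with 0.363% higher, while none of the 10 was called after upper-quartile scaling. By sample number, libraries labelled 16 h are the first 12 and those labelled 48 h the last 12. Time therefore cannot be told apart from that order, and whether the labels give the true times was not tested. In TH1 16h cGAMP replicates 2 and 3 and TH9 16h Control replicates 1 and 2, Ier3 had 28.6 to 61.2 TPM. The other libraries labelled 16 h had 0 to 3.3 TPM. In TH1 48h cGAMP replicates 2 and 3 and TH9 48h Control replicates 1 and 2, it had 0.284 to 0.933 TPM. The others labelled 48 h had 12.8 to 37.2 TPM. Each time label thus mixes libraries unlike in Ier3. All 5 subunits were called lower. Nfkb1 had 39.4 to 110 TPM (median 64.6) in libraries labelled 48 h, against 94.8 to 283 TPM (median 176) in those labelled 16 h, so that the ranges overlap slightly. Nfkb1 averaged 70.9 ± 24.1 TPM at 48 h and 185 ± 59.1 at 16 h (SD, n = 12 each), a log2 fold change of -1.38 ± 0.204 (SE) with an adjusted p of 3.99e-05 by limma. Rel fell the furthest, with 8.4 ± 4.55 TPM at 48 h and 25.9 ± 10.3 at 16 h, a log2 fold change of -1.57 ± 0.247 (adjusted p 4.91e-05 by limma). Its ranges, 3.39 to 16.2 TPM at 48 h and 13.4 to 50.9 TPM at 16 h, overlap slightly too. Nfkb2 was at -1.29, Relb at -1.02 and Rela at -0.90. None of the 10 genes was free of overlap between the times, as 1.63% of all genes were in the lower direction. Of the inhibitors 4 were called lower: Nfkbie at -1.31, Nfkbia and Nfkbiz at -1.18 each, and Tnfaip3 at -0.88. Nfkbia had 25.3 to 75.8 TPM (median 36.9) at 48 h and 53.8 to 169 TPM (median 87.4) at 16 h. Bcl3 had 9.64 ± 5.13 TPM at 48 h and 15.9 ± 9.47 at 16 h, and its -0.64 ± 0.316 was not called (adjusted p 0.0786 by limma). Leaving out TH1 16h cGAMP replicate 1, TH1 48h cGAMP replicate 1 or TH9 48h Control replicate 3 made Bcl3 pass as well, with log2 fold changes of -0.85, -0.76 and -0.79 and adjusted p of 0.00982, 0.0432 and 0.0275 by limma.

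These values moved with the make-up of the libraries. The median log2 fold change of all genes was -0.82, Gm10800 took a median of 26.5% of all TPM in libraries labelled 48 h and 1.65% in those labelled 16 h, the 20 most abundant symbols took 48.5 to 89.7% at 48 h and 14.9 to 69.3% at 16 h, and the summed CD4 T cell markers had medians of 663 TPM at 48 h and 1279 TPM at 16 h. Fewer cells of a type and less RNA per cell cannot be told apart in such bulk samples, and the part of either in the result was not tested. With each library scaled to the same upper quartile, 0 of the 10 genes were called, as 1.6% of all genes were lower and 1.17% higher, and 2 of the 10 had an unadjusted p under 0.05 by limma. Rel was then at -0.61 ± 0.231, Nfkbie at -0.41 ± 0.208, Nfkb1 at -0.34 ± 0.153 and Rela at -0.0037 ± 0.125, while Tnfaip3 turned to 0.14 ± 0.314 and Bcl3 to 0.30 ± 0.226. Recomputing TPM without the 20 most abundant symbols gave 0 calls among the 10 as well, and 2.75% of all genes lower and 0.924% higher. Since each time label mixes libraries high and low in Ier3, none of these fits can show whether the 10 genes changed with time.

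**Figure D4:**
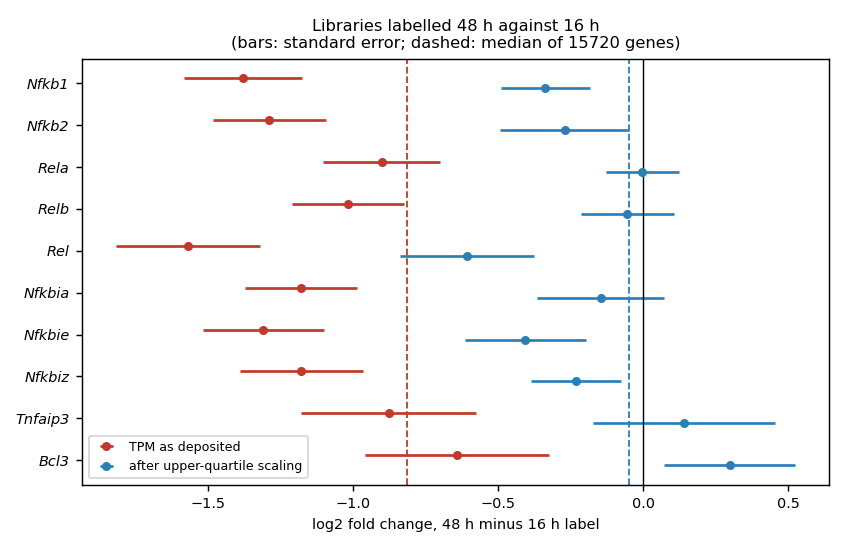
Log2 fold change (horizontal axis) of each gene between libraries labelled 48 h and 16 h, from TPM as deposited (red) and after upper-quartile scaling (blue). Points are estimates, bars are standard errors and dashed lines are medians of 15720 genes, at -0.82 and -0.05. The red points run from -1.57 for Rel to -0.64 for Bcl3 and the blue points from -0.61 to 0.30.

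The pathway lists moved with the members between the time labels. Called lower at 48 h were 15 of 16 other brakes, 14 of 14 genes of IKK and its activators, 8 of 8 of the T cell receptor arm, 6 of 9 tested genes of the alternative pathway, 7 of 7 of the STING arm and 19 of 25 textbook targets, and under upper-quartile scaling none of any list was called in either direction, with 14 of the 79 genes at an unadjusted p under 0.05 by limma, where 20.2% of all genes had one. Il2, the T cell growth factor, was the lowest of the targets at -2.81 ± 0.556, and Cd69, an early activation marker, was at -1.88 ± 0.364. Nfkbid, which encodes the nuclear protein IκBNS, was the lowest of the brakes at -1.67 ± 0.287. Tnip3 among the brakes (-0.20 ± 0.501), and the receptors Tnfrsf4, Tnfrsf18 and Tnfrsf9 of the alternative pathway (-0.70, -0.29 and -0.11), were not called. Genes of this paragraph other than those of the average cGAMP comparison were picked after their values were seen.

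Across the 24 libraries the 10 genes varied together in the deposited values, by a rank correlation (Spearman) that here describes likeness only, since all values of a library share its scale. Over the 45 pairs it had a median of 0.768 and ran from 0.279 for Bcl3 and Nfkbie to 0.94 for Nfkb2 and Nfkbie. After upper-quartile scaling the median of the pairs was 0.356. Nfkb2 and Nfkbie remained the most alike, at 0.874, followed by Nfkb2 and Nfkbia at 0.805, Nfkb1 and Nfkbia at 0.709, and Nfkb1 and Nfkbie at 0.704. Bcl3 was negative in 8 of its 9 pairs, with a median of -0.492 and -0.61 with Nfkb1, and was at 0.195 with Tnfaip3. The 24 libraries pool those high and low in Ier3, Irf7 and Tbx21. The part of that mix in these correlations was not tested. The library with the highest ratio of Bcl3 to Nfkb1, TH1 48h Control replicate 1, had 18.5 TPM of Bcl3 and 52.7 TPM of Nfkb1, and the lowest, TH9 16h cGAMP replicate 2, had 7.88 TPM of Bcl3 and 236 TPM of Nfkb1.

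**Figure D5:**
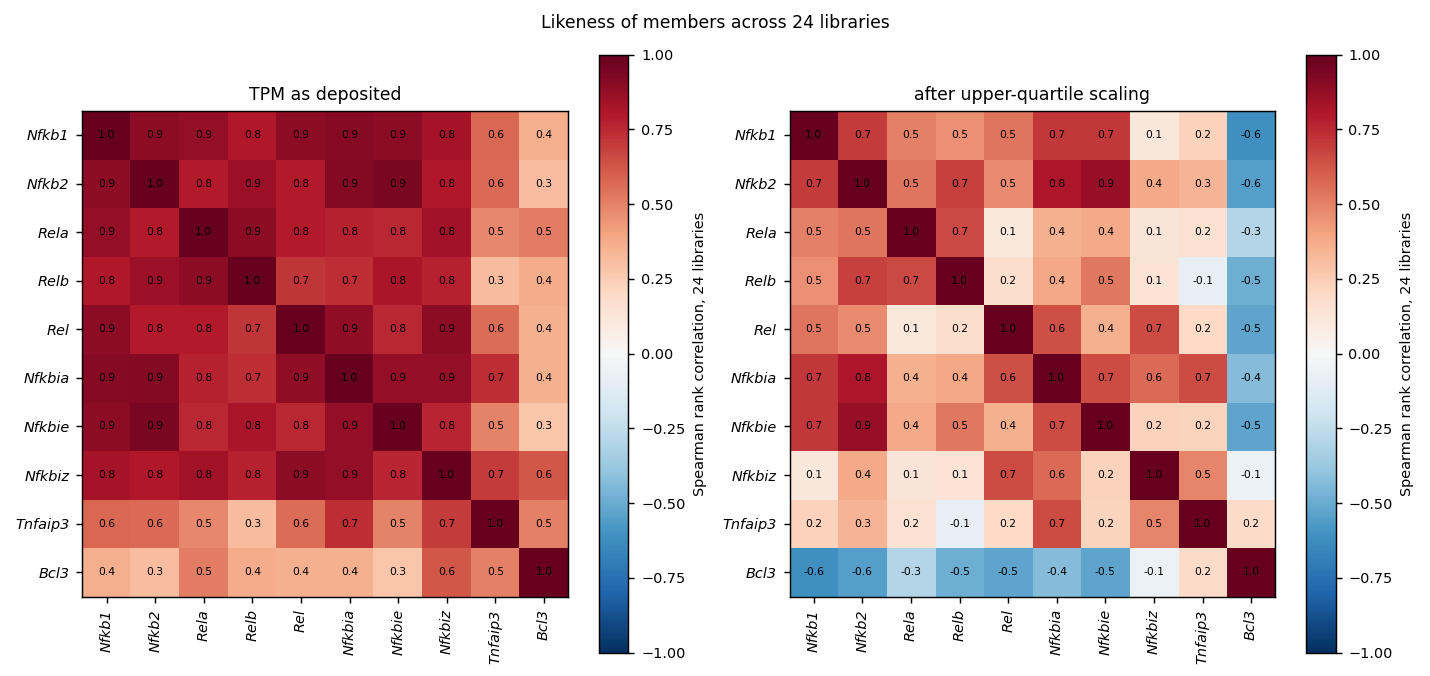
Spearman rank correlation between each pair of the 10 genes over 24 libraries, from TPM as deposited (left) and after upper-quartile scaling (right). Red is positive and blue is negative. The pair Nfkb2 and Nfkbie is at 0.94 on the left and 0.874 on the right, and Bcl3 has blue cells with most others on the right, down to -0.61 with Nfkb1.

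Among genes outside the family, those most like the 10 in the deposited values included Prrc2a, Atmin, Smcr8, Ubqln1, Elp2, Cln3 and Patl1, with median rank correlations of 0.875 to 0.884 with the members, where the median over all other tested genes was 0.567. After upper-quartile scaling these gave way to Zmiz2, Tbrg4, Zfp598, Usp31, Nfyc, Syngr2, Bcl2l1 and Wdr46, at 0.614 to 0.661, where the median over all other genes was -0.00093. Bcl2l1, which encodes the survival protein Bcl-xL and is in the list of textbook targets, had 16 to 194 TPM over the libraries.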

How the data were processed

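RNA of mouse naive CD4 T cell cultures (500 ng each) was depleted of rRNA and prepared as strand-specific libraries, read as 76 bp single ends. The sample labels give the dinucleotide dose per mL, and the published methods give the same figure per L. The authors trimmed the reads with Trimmomatic, pseudo-aligned them with kallisto against mm10, and used DESeq2 for tests of their own that are not used here. In the sources used here, neither tool versions nor the transcript annotation are given. The values the authors deposited are TPM, with one value for each symbol and library. Read counts cannot be had from TPM, so depth is unknown and counting intervals are left out. Reads shared by near-identical copies are split by kallisto's estimate.

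The 10 members and the pathway lists were chosen with earlier results of these data known. Groups are the deposited labels, although subset markers and interferon genes go against them, which touches every comparison. In R 4.3.3, limma 3.58.1 with an intensity trend was fitted on log2(TPM + 1) with a mean for each of 8 labels, over 24 libraries and the 15720 symbols that reached 1 TPM in 3 or more libraries. Fold changes on this scale understate those of low genes. P-values are two-sided and adjusted by Benjamini-Hochberg over all genes, and a call is an adjusted p under 0.05. There were 11 comparisons. The model was first tested on simulated data. Alternatives were pseudocounts of 0.1 and 10, no filter, upper-quartile scaling, TPM without the 20 most abundant symbols, a replicate block, only the compared libraries, and leaving out each library. By the naming rule, all 10 members, the 2 genes of each list with the smallest p in the average cGAMP comparison and the 8 other genes most like the members are named, of which 1 is not reported here. Named outside it were marker genes, Ier3, the list genes given for 48 h against 16 h and the like genes after upper-quartile scaling. These were chosen after their values were seen. Gene positions are GRCm38, and promoter windows are RefSeq, GRCm38.p6.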

Additional observations from a re-analysis of the deposited data

How the results depend on the processing

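Other pseudocounts, no filter, the replicate block and a fit of only the compared libraries changed no call and no sign among the 10 genes. Scaling did. At TH9 48h, upper-quartile scaling gave log2 fold changes of -0.25 for Nfkb1, -0.11 for Nfkb2, -0.11 for Rela, -0.585 for Relb and -0.31 for Rel, and leaving out the 20 most abundant symbols gave -0.35, -0.22, -0.21, -0.71 and -0.43 in the same order, with Nfkbia at -0.078, Nfkbie at -0.048 and Nfkbiz at -0.074. At TH9 16h the 2 settings gave 0.21 and 0.23 for Nfkb2, 0.057 and 0.088 for Rela, 0.12 and 0.15 for Relb, 0.27 and 0.30 for Rel, and 0.24 and 0.26 for Nfkbia. At TH1 48h they gave 0.14 and 0.27 for Tnfaip3, and the second gave 0.0092 for Nfkbiz, and 0.10 for Nfkbiz at TH1 16h. Bcl3 turned to -0.059 and -0.048 for TH9 against TH1, and for 48 h against 16 h to 0.30 and 0.26, with Tnfaip3 at 0.14 and 0.082. The other 8 members called lower at 48 h kept their sign and lost the call under both. The members called were then 0 and 0, in place of 9, and the genes called 435 and 577, in place of 10198.

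Counts over all genes were small and unstable in the other comparisons. For cGAMP against control at TH1 16h, 1 gene was called, against 0 with a pseudocount of 0.1, 2 with 10, 37 with no filter, 0 with the replicate block and 0 with only the compared libraries. At TH9 16h a pseudocount of 10 gave 1, at TH1 48h a pseudocount of 0.1 and leaving out the abundant symbols gave 1 each, and at TH9 48h no filter gave 6, in place of 0. For the difference TH9 minus TH1 at 16 h, no filter gave 3, and both pseudocounts, both scalings and the replicate block gave 0, in place of 1. For 48 h minus 16 h, a pseudocount of 0.1 and leaving out the abundant symbols gave 1 each in TH1, and upper-quartile scaling gave 2 in TH9, in place of 0.

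Leaving out each library in turn moved the counts of genes called between cGAMP and control labels. They ran from 0 to 9 for TH1 16h (the highest without its cGAMP replicate 1) and 0 to 24 for TH9 16h (without its Control replicate 3). They ran from 0 to 2 for TH1 48h, 0 to 2 for TH9 48h, and 0 to 1 on average. TH9 against TH1 had 0 to 1, and 48 h against 16 h had 9458 to 10826 with 9 to 10 members. The differences of the fold change between cGAMP and control labels had 0 to 155 for TH9 minus TH1 at 16 h. For 48 h minus 16 h in TH1 they had 0 to 118, and both were highest without TH1 16h cGAMP replicate 1. For TH9 minus TH1 at 48 h they had 0 to 1. For 48 h minus 16 h in TH9 they had 0 to 567, highest without TH9 48h Control replicate 3. No member was called in any but the time comparison. Of 70 member values 18 turned sign at least once, none of them called. Their log2 fold changes ran, at TH1 16h, from -0.66 to 0.0041 for Nfkbie, -0.23 to 0.28 for Nfkbiz and -0.012 to 1.40 for Bcl3. At TH9 16h they ran from -0.16 to 0.21 for Nfkb1, -0.39 to 0.18 for Nfkb2, -0.35 to 0.33 for Rel, -0.34 to 0.17 for Nfkbia and -0.875 to 0.048 for Tnfaip3. At TH1 48h they ran from -0.069 to 0.70 for Rel, -0.0039 to 0.365 for Nfkbia and -0.75 to 0.31 for Tnfaip3, and at TH9 48h from -0.0097 to 0.345 for Relb and -0.052 to 0.69 for Rel. On average they ran from -0.135 to 0.0082 for Relb, -0.14 to 0.097 for Rel, -0.11 to 0.076 for Nfkbiz and -0.24 to 0.115 for Bcl3, and for TH9 against TH1 from -0.16 to 0.19 for Bcl3.

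Same-numbered libraries did not deviate together, with correlations of -0.225 to 0.164 over 12 pairs, 2 of them over 0.1. The deviations were taken from the means of labels that mix libraries unlike in Irf7 and Tbx21. The labels also do not say which experiment a library came from, so this check cannot show whether libraries were paired. With the replicate block, which uses the same numbers, 9 members were called lower for 48 h against 16 h and 0 in the other comparisons.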
